A study of Mus musculus with 18 samples.

Results

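Integrins and laminins were described here as RNA in ED1SQ4 cells, a murine lung cancer line derived from the tumors of mice with a cyclin E transgene. The set was chosen by gene symbol and holds 38 of the 55450 genes in the count table, of which 37 are described: 18 integrin α chains, 9 integrin β chains and 10 laminin chains. All cells carried the same tumor background and differed in treatment and DNA content. Cells received vehicle or CYC065, a CDK2/9 inhibitor, at 0.5 μM for 72 hours, and each treatment was profiled as unsorted cells, as sorted diploid (2N) cells and as sorted polyploid (4N) cells. DNA content set the sorting gates, so the 4N gate can also hold cycling cells that have copied their DNA and not yet divided. How the unsorted cells were handled before RNA extraction is not given in the sources used here.

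Integrins are receptors made of one α and one β chain that join the extracellular matrix to the cytoskeleton, and the pairing of chains sets which ligand is bound. Laminins are secreted trimers of one α, one β and one γ chain that form the sheet of the basement membrane. In epithelia such as the lung lining, α3β1 and α6β4 bind laminin, α5β1 binds fibronectin, and αvβ8 binds the latent form of TGF-β.

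Each condition rests on 1 library. The 3 columns of a condition are titled replicates 1 to 3 but carry 1 library number. Over genes with whole counts their chi-square per degree of freedom was 0.991 to 1.02. In those genes the columns differed by no more than sampling noise. Over all genes, with fractional counts included, the value was 1.62 to 2.24. The columns were summed to 54750203 to 62795507 expected counts per library. No test between conditions was possible, and differences are given as log2 ratios of TMM-normalized CPM (counts scaled to a common library total) with 95% counting intervals. These intervals cover counting error only and hold no spread between cultures. A chain was counted as higher or lower when its ratio was past 2-fold and at least 1 of the compared libraries held 30 summed counts. CPM values are relative to the other RNA of a library. Less of an RNA per cell and fewer cells with that RNA cannot be told apart in these bulk libraries.

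Of the defining markers examined, the epithelial markers *Epcam* and *Cldn7* had at most 3 counts in every library, as did the lung markers *Nkx2-1*, *Sftpc* and *Napsa*. The 8 epithelial markers summed to 0.593 to 0.996 CPM in the vehicle and 1.05 to 1.61 CPM in the CYC065 libraries. Of these, 1 reached 30 counts, in CYC065 4N cells alone, with a CYC065 to vehicle ratio of 1.73 there. The 8 lung epithelial markers summed to 2.56 to 3.63 CPM in the vehicle and 4.72 to 8.12 CPM in the CYC065 libraries. Most of the lung sum was *Foxa2*, a transcription factor of endoderm, with 140 to 432 counts per library and a CYC065 to vehicle ratio of 1.55 in 2N, 1.32 in 4N and 0.17 in unsorted cells. A further lung marker could be compared in 2N cells and was also higher after CYC065 there. The 11 mesenchymal markers all passed 30 counts in every library and summed to 11953 to 16982 CPM.

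Promoter sequence is shown for a chain on each side of the results, *Itga3*, which was lower after CYC065 in all 3 populations, and *Itgb5*, which had a ratio above 0 in all 3. The stretches lie upstream of the first RefSeq start of each gene (build GRCm38.p6) and are written 5′ to 3′ on the strand of the gene, with CpG dinucleotides in capitals. The *Itga3* stretch is chr11:95076802-95076964 on the minus strand and stops where the first annotated exon begins. The *Itgb5* stretch is chr16:33829415-33829664 on the plus strand.
Itga3: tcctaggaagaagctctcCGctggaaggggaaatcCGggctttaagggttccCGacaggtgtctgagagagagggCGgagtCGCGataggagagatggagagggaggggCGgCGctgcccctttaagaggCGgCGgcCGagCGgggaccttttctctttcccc
Itgb5: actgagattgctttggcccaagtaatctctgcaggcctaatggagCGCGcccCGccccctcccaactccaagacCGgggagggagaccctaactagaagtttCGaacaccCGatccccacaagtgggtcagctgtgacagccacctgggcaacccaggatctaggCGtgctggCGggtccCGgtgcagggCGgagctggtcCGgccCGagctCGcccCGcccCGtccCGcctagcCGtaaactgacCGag
Both stretches are rich in CpG, with 12 in the 163 bases of *Itga3* and 18 in the 250 bases of *Itgb5*. RefSeq lists more than 1 promoter for *Itga3*, and their 250 bases held 22 and 5 CpG. RefSeq gave 27 promoters for 24 of the 37 chains, and 18 of the 27 lay at a GENCODE start. Chains without a promoter included *Itga6*, *Itga7*, *Itgb2*, *Itgb3*, *Itgb4*, *Lama3*, *Lama4*, *Lamc1* and *Lamc3*, which are described below. The 27 also hold promoters of chains under 30 counts in every library, such as *Itgax*. They therefore do not stand for the chains that differed after CYC065. The 250 bases upstream held a median of 10 CpG in the 27, against 6 over all 32851 mouse promoters. The median GC content was 57.6% in the chains' promoters and 52.4% over all. TATAAA, the TATA box, was found on either strand in 0 of the 27, against 12.4% of all promoters. TGANTCA, the AP-1 motif, was found in 1 of the 27, that of *Itgax*, against 6.75% of all. GGAATG, the TEAD motif, was found in 3 of the 27, those of *Itga10*, *Itgb1* and *Lamb3*, against 12.6% of all. These counts describe letters in a window and say nothing of binding.

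Of the 37 chains, 24 reached 30 summed counts in at least 1 library, against 14754 of all 55450 genes. These were 9 of 18 integrin α chains, 7 of 9 integrin β chains and 8 of 10 laminin chains. The other 13 were *Itga1*, *Itga2*, *Itga4*, *Itga8*, *Itgad*, *Itgae*, *Itgal*, *Itgam*, *Itgax*, *Itgb2l*, *Itgb6*, *Lama1* and *Lama2*, with at most 20 counts in any library. *Itgb2l* had 0 counts in all 6 libraries, and 3 counts, the limit that a count of 0 allows, correspond to 0.0443 to 0.0545 CPM. The α chains of leukocytes were among these 13. *Itgal*, *Itgam*, *Itgax* and *Itgad*, the partners of the β2 chain, had at most 7 counts, and *Itgae* and *Itga4*, the partners of β7, at most 17 and 2. The β2 gene *Itgb2* nevertheless had 1.52 to 4.71 CPM, and the β7 gene *Itgb7* had 27.3 to 80.8 CPM. *Ptprc*, *Cd3e* and *Adgre1*, markers of leukocyte classes, had at most 3 counts in each library. The 10 leukocyte markers, *Itgb2*, *Itgal*, *Itgam* and *Itgax* among them, summed to 8.06 to 10.5 CPM in the vehicle and 14.2 to 27.5 CPM in the CYC065 libraries, and 3 of the 10 reached 30 counts in each. These were *Itgb2*, *Csf1r*, a receptor of macrophages, with 38 to 115 counts, and *Cd68*, a lysosomal protein of macrophages, with 194 to 233 counts in the vehicle and 598 to 1389 in the CYC065 libraries. The ratio of *Cd68* was 2.78 in 2N, 2.38 in 4N and 1.42 in unsorted cells, and that of *Csf1r* was -0.24, -0.94 and -1.27. Their part in the values of *Itgb2* and *Itgb7* was not tested. The platelet chain *Itga2b* had 2.69 to 4.74 CPM where *Gp1ba*, *Gp6*, *Gp9* and *Pf4*, further platelet and megakaryocyte genes, had at most 3 counts. *Ppbp*, a platelet chemokine, had 126 counts in vehicle 2N and 337 in vehicle 4N cells, and 11 to 57 in the other 4 libraries. With *Itga2b* among them, the 6 markers of this lineage summed to 3.12 to 8.44 CPM, and 6 endothelial markers summed to 0.611 to 1.94 CPM. Of the endothelial markers, 1 reached 30 counts, in the sorted libraries alone. Its CYC065 to vehicle ratio was -0.61 in 2N and -1.79 in 4N cells.

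Levels between genes were compared per kilobase of merged exons. *Itgb1*, the shared β chain of most matrix receptors, was the most abundant chain in each library, with 143 to 264 CPM per kb. *Lamb1*, the main laminin β chain, was next in 5 of the 6 libraries, with 54.9 to 112 CPM per kb over all 6, and the fibronectin receptor chain *Itga5* had 54.1 to 92.7 CPM per kb. *Lamc1*, the γ chain of most laminins, had 51.8 to 102 CPM per kb, and lay above *Lamb1* in CYC065 unsorted cells. *Itga3* had 51.0 to 84.9 CPM per kb in the vehicle libraries and 23.2 to 33.0 after CYC065, and *Itgav*, the αv chain, had 32.9 to 50.3 CPM per kb. The plot of levels in the 6 libraries shows these chains apart from a low group that includes *Itga7*, *Itga9*, *Itga10*, *Lama3*, *Lamb3* and *Lamc3*, each under 0.5 CPM per kb.

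**Figure D1:**
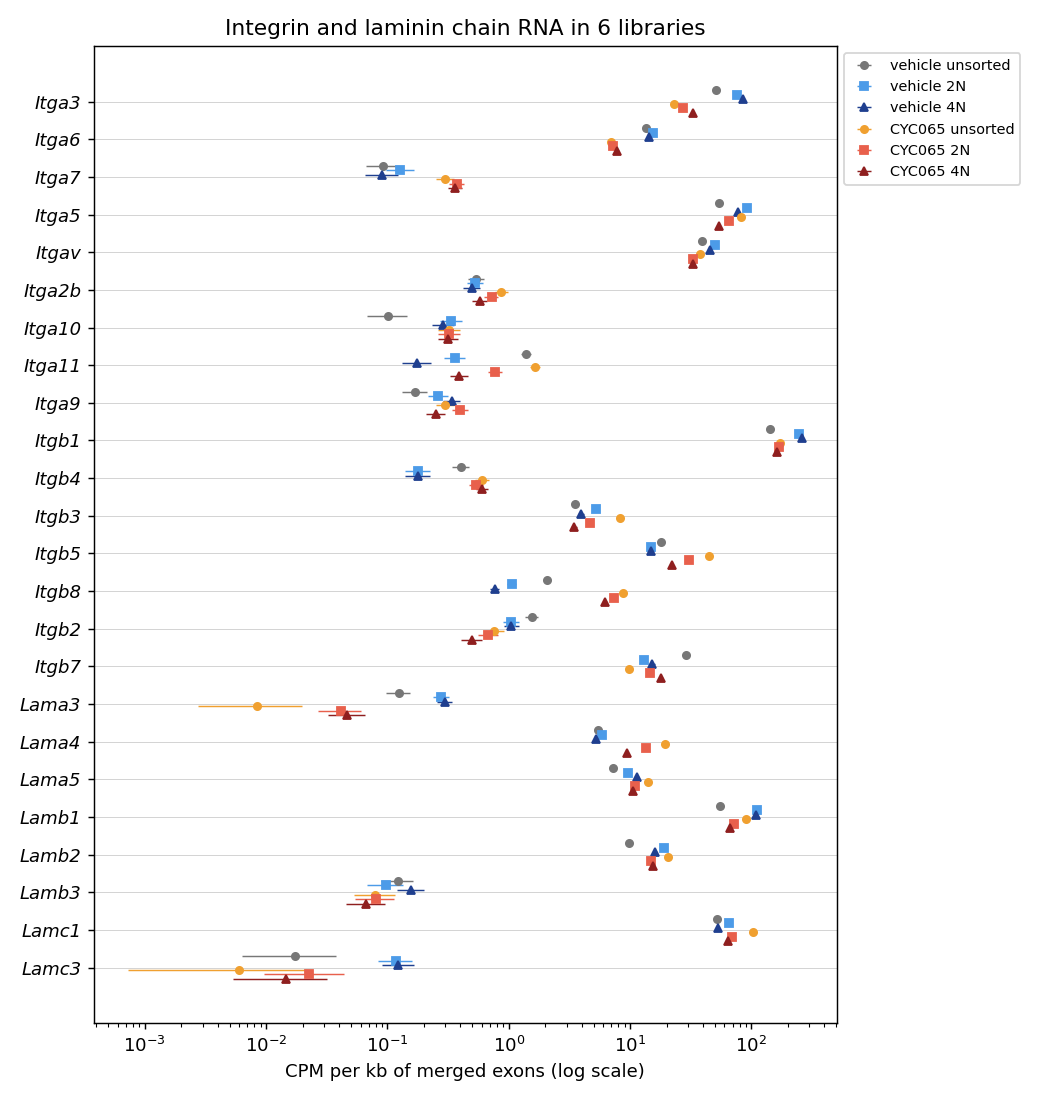
Levels of the 24 chains that reached 30 counts, in CPM per kb of merged exons on a log axis, with 1 point per library and bars for the 95% counting interval. *Itgb1* sits highest, at 143 to 264 CPM per kb, and *Itgb8* sits at 0.768 to 2.05 in the vehicle libraries against 6.22 to 8.70 after CYC065.

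CYC065 was first compared with vehicle in sorted 2N cells. Here *Itgb8*, *Itgb4*, *Itga7*, *Lama4*, *Itga11* and *Itgb5* were higher, and *Lama3*, *Lamc3*, *Itga3* and *Itga6* were lower. These were 6 higher and 4 lower of 24 chains, against a background of 28.1% of all 14083 genes in either direction, 14.9% higher and 13.3% lower. The median log2 ratio of the 24 chains was -0.11, and that of all genes was -0.07. In sorted 4N cells, 4 chains were higher and 5 lower of 24, against 25.5% of all genes, with 14.1% higher and 11.4% lower. The higher ones were *Itgb8*, *Itga7*, *Itgb4* and *Itga11*, and the lower ones were *Lamc3*, *Lama3*, *Itga3*, *Lamb3* and *Itgb2*. The median over the chains was -0.15 in 4N cells. In unsorted cells, 7 chains were higher and 4 lower of 23, against 25.6% of all genes, with 11.7% higher and 13.9% lower. *Itgb8*, *Lama4*, *Itga7*, *Itga10*, *Itgb5*, *Itgb3* and *Lamb2* were higher and *Lama3*, *Itgb7*, *Itga3* and *Itgb2* were lower there. The median over the chains was 0.69 in unsorted cells, where that of all genes was -0.07. With DESeq2 size factors the unsorted split was 9 higher and 3 lower, since *Lamc1* (1.04) and *Lama5* (1.01) passed 2-fold and *Itgb2* (-0.96) did not.

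**Figure D2:**
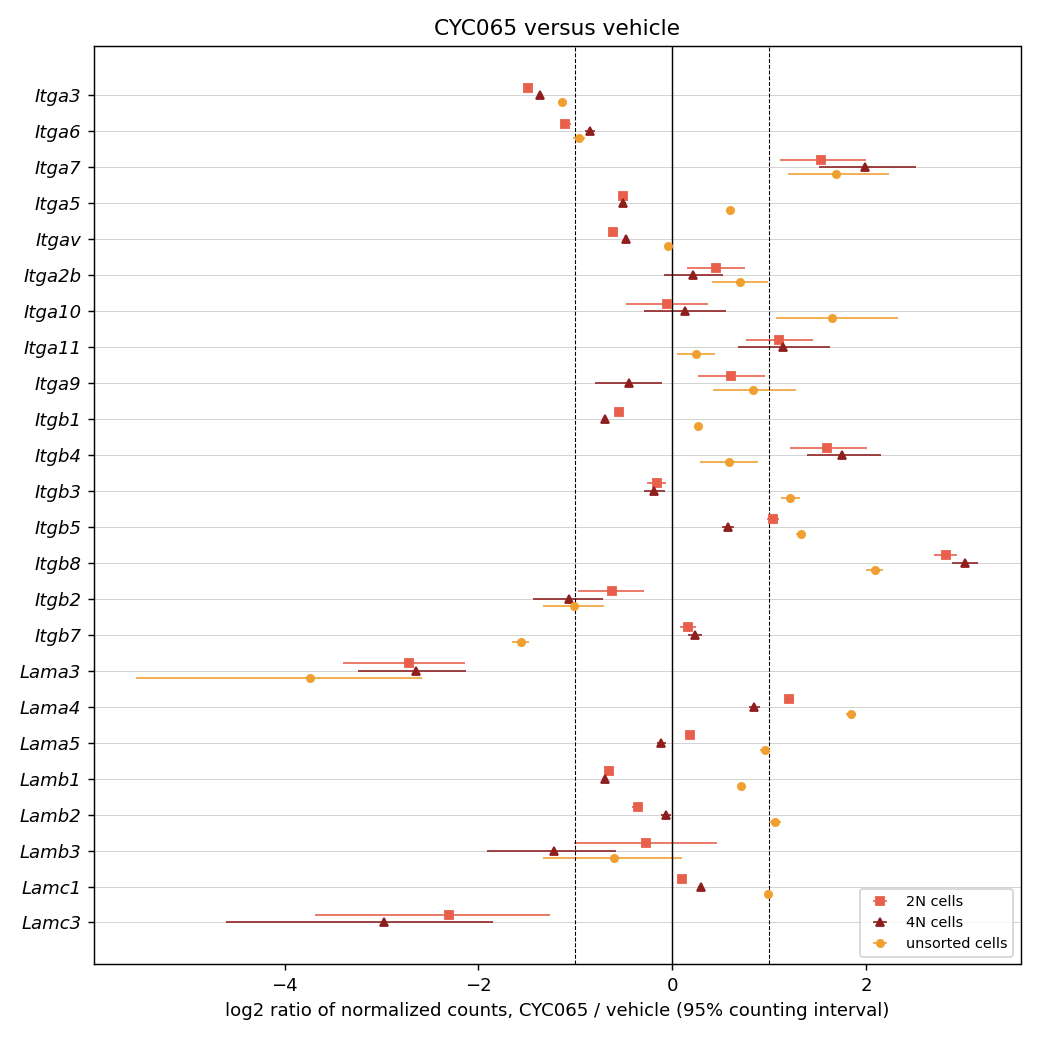
Log2 ratio of CYC065 to vehicle for each chain in 2N, 4N and unsorted cells, with bars for the 95% counting interval and dashed lines at 2-fold. *Itgb8* and *Itga7* lie to the right of the upper line in all 3 populations, and *Itga3* and *Lama3* lie to the left of the lower line.

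The chains past 2-fold in the same direction in all 3 populations were *Itgb8* and *Itga7* on the higher side, and *Itga3* and *Lama3* on the lower side. These are 2 and 2 of 23 chains, against 6.4% and 6.99% of all genes. The 3 comparisons use different libraries, which need not come from separate cultures. The paper's methods describe treated cells that were stained and then sorted by DNA content. The diploid and polyploid libraries of a treatment may thus be fractions of the same culture. Whether they are is not given in the sources used here, so agreement between these populations cannot be taken as independent. *Itgb8*, *Itga7*, *Itga3* and *Lama3* stayed past 2-fold in all 3 populations under each scaling, prior count and test on the columns tried, and when any replicate was left out. The columns are parts of 1 library, so testing on them or leaving 1 out holds no spread between cultures. With a filter at 100 summed counts, *Lama3* was not compared in unsorted cells, where it had 76 counts with vehicle and 5 with CYC065.

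Among the receptors for laminin, the α3 and α6 chains were lower after CYC065 and the α7 chain was higher. *Itga3* (chr11, 95044474 to 95076801, mm10) had 436 CPM in vehicle 2N, 485 in vehicle 4N and 291 in vehicle unsorted cells, against 155, 188 and 132 CPM with CYC065 in the same order. Every CYC065 library lay below every vehicle library. The share of all genes that separate in this way was not counted, here or for the chains below. Such separation therefore cannot be called particular to these chains. Over all genes, 76.7% had CYC065 ratios of the same sign in all 3 populations, which is a looser pattern. The 3 libraries of a treatment are different populations and not replicates. The log2 ratio was -1.49 (95% counting interval -1.53 to -1.46) in 2N, -1.36 (-1.39 to -1.33) in 4N and -1.14 (-1.18 to -1.10) in unsorted cells. *Itga6*, which pairs with β1 or β4, had 139, 128 and 123 CPM with vehicle in 2N, 4N and unsorted cells, and 64.7, 71.1 and 62.9 CPM with CYC065. Its groups did not overlap either, and its log2 ratio of -1.10 in 2N cells was past 2-fold. The ratios of -0.85 in 4N and -0.97 in unsorted cells were not. Scaling by library size alone gave *Itga6* -0.97 in 2N and -1.01 in unsorted cells, so that call sits at the threshold.

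*Itga7*, the laminin receptor chain of muscle, had 1.03, 0.733 and 0.750 CPM with vehicle in 2N, 4N and unsorted cells, and 3.01, 2.93 and 2.44 CPM with CYC065. The CYC065 levels were 2.90-fold, 3.96-fold and 3.22-fold higher, and the groups did not overlap. These levels rest on 43 to 58 counts with vehicle and 134 to 198 with CYC065, and the interval of the log2 ratio in 2N cells ran from 1.11 to 2.00.

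*Itgb4*, the β chain that pairs with α6 in hemidesmosomes, had ratios of opposite sign to those of *Itga6*. It had 1.25 CPM in both vehicle sorted libraries and 2.83 CPM in vehicle unsorted cells, against 3.78, 4.21 and 4.23 CPM with CYC065 in 2N, 4N and unsorted cells. The ratio was 1.59 (1.21 to 2.01) in 2N and 1.75 (1.38 to 2.15) in 4N cells, and 0.58 (0.29 to 0.88) in unsorted cells. The vehicle unsorted library lay above both vehicle sorted libraries, and the 3 CYC065 libraries lay together. *Itgb4* shares 4.16% of its 50-base words with other genes, and an antisense gene overlaps its exons.

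The αv chain pairs with β1, β3, β5, β6 and β8, and of these *Itgb8* and *Itgb5* were at higher levels in each CYC065 library than in its vehicle library. *Itgb8* (chr12, 119158022 to 119238802), the β8 chain, had 11.7 CPM in vehicle 2N, 8.49 in vehicle 4N and 22.7 in vehicle unsorted cells, and 82.1, 68.8 and 96.2 CPM with CYC065. Each CYC065 library held at least 4656 counts and lay above every vehicle library. *Itgb8* was 7.04-fold higher in 2N cells (log2 ratio 2.82, 2.70 to 2.94), 8.09-fold higher in 4N cells (3.02, 2.88 to 3.15) and 4.24-fold higher in unsorted cells (2.09, 2.00 to 2.17). These were the largest ratios on the higher side of any chain in each population.

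*Itgb5*, a vitronectin receptor chain (chr16, 33829665 to 33949338), had 53.1, 52.9 and 63.6 CPM with vehicle in 2N, 4N and unsorted cells, against 109, 78.8 and 159 CPM with CYC065. The groups did not overlap. Its log2 ratio was past 2-fold in 2N cells at 1.03 (0.97 to 1.10) and in unsorted cells at 1.33 (1.27 to 1.38), and was 0.57 (0.51 to 0.64) in 4N cells. *Itgb5* shares 7.26% of its 50-base words with another gene, so its estimate is less certain. Shares of 5.49% for *Lamc3*, 5.40% for *Itgav* and 5.31% for *Itga6* limit those chains in the same way. Antisense genes overlap exons of *Itgav*, *Lamc3* and *Lama3*. *Itgb3*, the β chain of the platelet and osteoclast receptors, had 30.7, 23.3 and 20.9 CPM with vehicle and 27.4, 20.5 and 48.6 CPM with CYC065 in 2N, 4N and unsorted cells. Its groups overlapped, since the unsorted CYC065 library stood alone above the rest. *Itgb6*, the epithelial partner of αv, had at most 13 counts in any library. The αv gene itself, *Itgav*, had 540, 493 and 423 CPM with vehicle and 354, 354 and 408 CPM with CYC065. Its log2 ratio was -0.61 in 2N, -0.48 in 4N and -0.05 in unsorted cells, and the sign of the last turned with DESeq2 size factors (0.01).

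Summed per length, *Itgb3*, *Itgb5*, *Itgb6* and *Itgb8* had 21.2 ± 0.304 CPM per kb (counting SE) in vehicle 2N and 42.7 ± 0.415 in CYC065 2N cells. In 4N cells the sum was 19.6 ± 0.290 with vehicle and 31.9 ± 0.331 with CYC065, and in unsorted cells 23.5 ± 0.319 and 61.8 ± 0.519. The sum leaves out *Itgb1*, which is more abundant and pairs with many other α chains. *Itgb8* made up 4.97% of this pool in vehicle 2N cells (95% binomial interval 4.59 to 5.37) and 17.4% after CYC065 (16.9 to 17.9). In 4N cells its share was 3.91% and 19.5%, and in unsorted cells 8.72% and 14.1%. The share of *Itgb8* was thus higher in every CYC065 library than in every vehicle library.

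The whole pool of integrin α chains was lower after CYC065 in the sorted cells, at 236 against 135 CPM per kb in 2N and 223 against 130 in 4N cells. In unsorted cells it was 161 with vehicle and 154 with CYC065. *Itga3* made up 32.3%, 38.0% and 31.8% of the pool with vehicle in 2N, 4N and unsorted cells, and 20.1%, 25.4% and 15.1% with CYC065. *Itga5* made up 39.2%, 34.4% and 33.8% with vehicle and 48.3%, 41.7% and 53.5% with CYC065. The fibronectin receptor chain thus had a larger share, and the laminin receptor chain a smaller one, in each CYC065 library than in its vehicle library. The share of *Itga5* was larger although its own level was lower after CYC065 in 2N and 4N cells, with a log2 ratio of -0.51 in both.

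**Figure D3:**
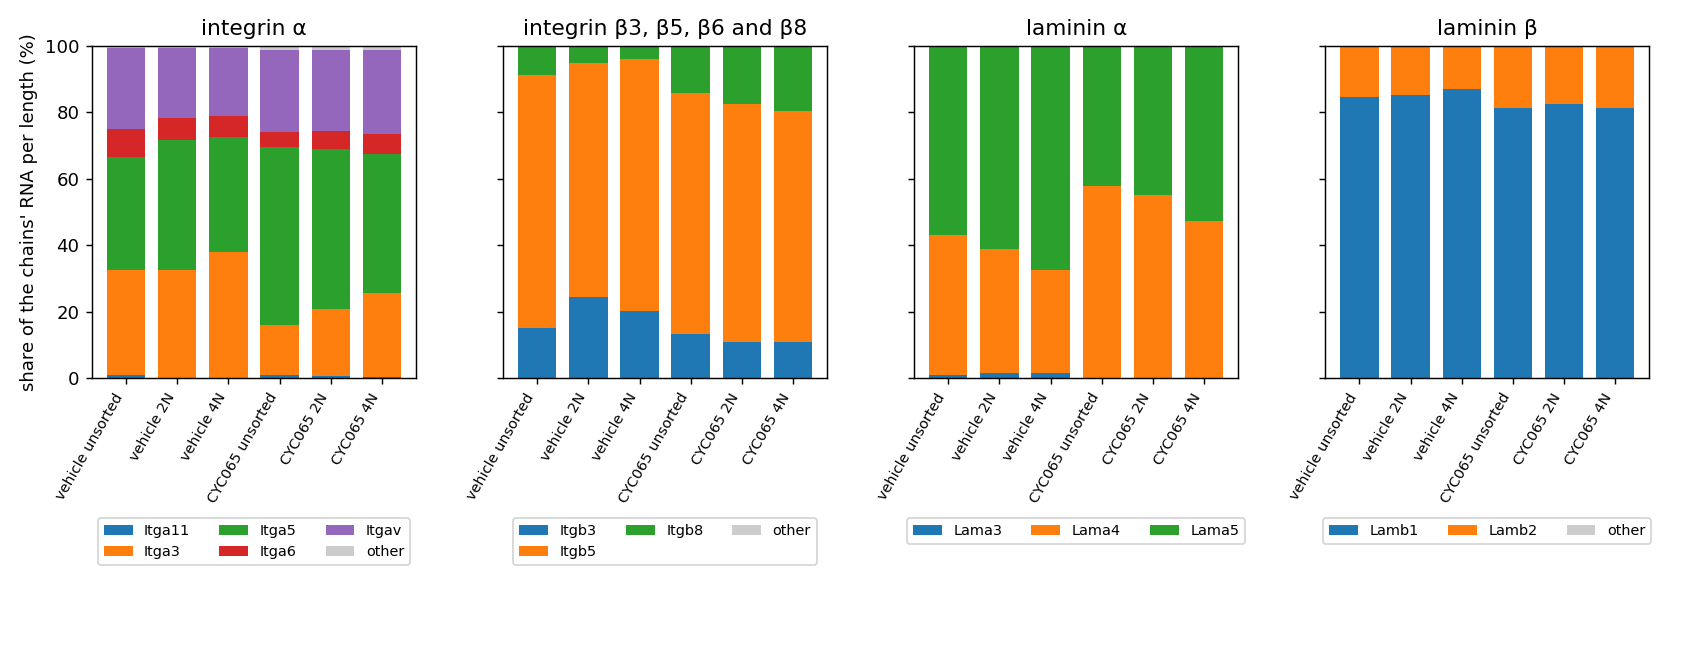
Share of each chain in the RNA per length of 4 pools (integrin α, *Itgb3* with *Itgb5*, *Itgb6* and *Itgb8*, laminin α and laminin β), with 1 stacked bar per library. In the CYC065 bars the *Itga3* segment is smaller (15.1% to 25.4%, against 31.8% to 38.0% with vehicle) and the *Itgb8* and *Lama4* segments are larger.

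Of the collagen receptors, *Itga1* and *Itga2* were under 30 counts and *Itga10* and *Itga11* were low. *Itga11* (chr9, 62677826 to 62783982), a collagen receptor of fibroblasts, had 1.83, 0.904 and 7.12 CPM with vehicle in 2N, 4N and unsorted cells, and 3.93, 1.99 and 8.41 CPM with CYC065. Both unsorted libraries lay above all 4 sorted ones. The CYC065 to vehicle ratio was 1.10 (0.76 to 1.45) in 2N, 1.13 (0.67 to 1.63) in 4N and 0.24 (0.05 to 0.44) in unsorted cells. The 4N ratio was 0.87 without replicate 3. *Itga10* had 1.5 to 1.74 CPM in 5 libraries and 0.528 CPM in vehicle unsorted cells, which set its ratio of 1.65 (1.07 to 2.32) in unsorted cells. *Itga10* shares 30.6% of its 50-base words with an overlapping gene on the same strand, and its estimate is uncertain. *Itga9*, whose chain binds tenascin and osteopontin, had 2.01, 2.63 and 1.29 CPM with vehicle and 3.06, 1.92 and 2.31 CPM with CYC065 in 2N, 4N and unsorted cells. *Itga2b*, the platelet α chain, was not past 2-fold in any population, with ratios of 0.45, 0.22 and 0.69.

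The β chains of leukocytes were low or mixed. *Itgb2* had 3.20, 3.21 and 4.71 CPM with vehicle and 2.07, 1.52 and 2.33 CPM with CYC065, and these groups did not overlap. Its log2 ratios were -0.63 in 2N, -1.07 in 4N and -1.02 in unsorted cells, and both calls sit at the threshold. Scaling by library size alone gave -0.93 in 4N cells. *Itgb7* (chr15, 102215995 to 102231944) had 36.3, 42.4 and 80.8 CPM with vehicle and 40.6, 49.7 and 27.3 CPM with CYC065. Its ratio was 0.16 (0.07 to 0.25) in 2N and 0.23 (0.16 to 0.31) in 4N cells, and -1.57 (-1.65 to -1.48) in unsorted cells. Here the vehicle unsorted library was the highest of the 6 and the CYC065 unsorted library the lowest.

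Among laminin α chains, *Lama4* was higher and *Lama3* lower after CYC065, and *Lama5* differed between populations. *Lama4* (chr10, 38965515 to 39110188), the α chain of vessel and mesenchymal basement membranes, had 71.0, 63.7 and 65.2 CPM with vehicle in 2N, 4N and unsorted cells, and 163, 114 and 233 CPM with CYC065. Every CYC065 library lay above every vehicle library. The log2 ratio was 1.20 (1.14 to 1.25) in 2N, 0.84 (0.79 to 0.90) in 4N and 1.84 (1.78 to 1.89) in unsorted cells. *Lama5*, the α chain of most adult epithelial basement membranes, had 110, 131 and 83.0 CPM with vehicle and 125, 121 and 161 CPM with CYC065. Its ratio was 0.18 in 2N and 0.95 in unsorted cells, and in 4N cells it was -0.12, or 0.03 with library size scaling alone. *Lama4* made up 37.1%, 30.9% and 42.1% of laminin α RNA per length with vehicle in 2N, 4N and unsorted cells, and 55.0%, 47.1% and 57.8% with CYC065.

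*Lama3* and *Lamb3* encode chains of the laminin that anchors hemidesmosomes in epithelium. *Lama3* had 2.97, 3.19 and 1.33 CPM with vehicle in 2N, 4N and unsorted cells, and 0.445, 0.502 and 0.0909 CPM with CYC065, which rest on 26, 34 and 5 counts. All 3 CYC065 libraries lay below all 3 vehicle libraries, by 6.57-fold in 2N, 6.27-fold in 4N and 13.4-fold in unsorted cells. The intervals of these log2 ratios were -3.40 to -2.14, -3.24 to -2.13 and -5.53 to -2.58. *Lamb3* had 29 to 61 counts per library and a ratio of -0.27 (-1.01 to 0.46) in 2N, -1.22 (-1.91 to -0.58) in 4N and -0.60 (-1.33 to 0.09) in unsorted cells. The 4N ratio was -0.87 without replicate 2. *Lamc3*, a γ chain of minor laminins, had 40 and 44 counts with vehicle in 2N and 4N cells, against 8 and 6 counts with CYC065. Its log2 ratios were -2.31 (-3.69 to -1.26) and -2.97 (-4.60 to -1.85), and both unsorted libraries held at most 6 counts.

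The abundant laminin chains *Lamb1*, *Lamb2* and *Lamc1* differed between sorted and unsorted cells. *Lamb1* (chr12, 31265234 to 31329644) had 1113, 1080 and 545 CPM with vehicle in 2N, 4N and unsorted cells, and 707, 667 and 888 CPM with CYC065. The ratio was -0.65 (-0.67 to -0.64) in 2N, -0.70 (-0.71 to -0.68) in 4N and 0.70 (0.68 to 0.72) in unsorted cells. *Lamb2* had 116, 98.4 and 59.5 CPM with vehicle and 90.7, 93.8 and 124 CPM with CYC065. *Lamc1* had 537, 435 and 428 CPM with vehicle and 576, 532 and 847 CPM with CYC065, with ratios of 0.10, 0.29 and 0.98. In all 6 libraries *Lamb1* made up 81.3% to 87.0% of laminin β RNA per length.

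The sign of the CYC065 ratio in unsorted cells was opposite to that in both sorted populations for *Itga5*, *Itgb1*, *Itgb3*, *Itgb7*, *Lamb1* and *Lamb2*. These are 6 of 23 chains, against 12% of all genes, and the *Lamb2* ratio of -0.07 in 4N cells turned to 0.07 with library size scaling alone. The same sign was seen in all 3 populations for 14 of 23 chains, against 76.7% of all genes. *Itgb1* had 1009, 1076 and 583 CPM with vehicle in 2N, 4N and unsorted cells, and 688, 664 and 699 CPM with CYC065. *Itga5* had 457, 379 and 268 CPM with vehicle and 321, 267 and 405 CPM with CYC065. For *Itgb1*, *Itga5*, *Lamb1* and *Lamb2* the 3 CYC065 libraries lay closer together than the 3 vehicle libraries, and the vehicle unsorted library was the lowest of the vehicle ones. The difference between the CYC065 ratios in unsorted and in 2N cells was past 2-fold for 8 of 23 chains, against 9.71% of all genes. For unsorted and 4N cells it was past 2-fold for 10 of 23, against 10.3%.

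The unsorted cells were therefore set against the sorted cells of the same treatment, by a rule chosen after the values were seen. With vehicle, the unsorted level was more than 1.5-fold above both sorted levels for *Itga11*, *Itgb4*, *Itgb7* and *Itgb8*, which are 4 of 24 chains, against 11.7% of all genes. It was more than 1.5-fold below both for *Itga10*, *Itga9*, *Itgb1*, *Lama3*, *Lamb1*, *Lamb2* and *Lamc3*, which are 7 of 24, against 7.11%. With CYC065, the unsorted level was above both for *Itga11* and *Itgb3*, 2 of 23 chains against 6.52%, and below both for *Lama3*, 1 of 23 against 5.71%. Cells of other DNA content, the sorting itself and the culture cannot be told apart here.

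**Figure D4:**
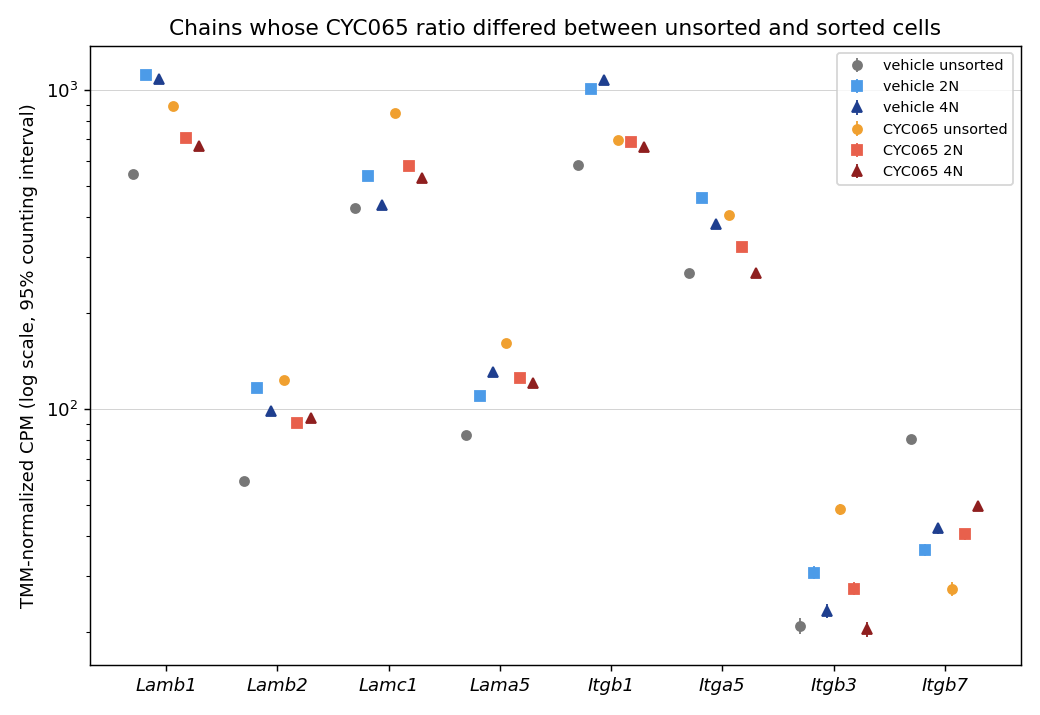
CPM on a log axis in the 6 libraries for 8 chains, picked for display, whose CYC065 ratio differed between unsorted and sorted cells. Bars show the 95% counting interval. The unsorted ratios of *Itgb1*, *Lamc1* and *Lama5* differed from the 2N ratios by under 2-fold. The plotted set is thus not the set of 8 chains counted as past 2-fold. For *Lamb1* the vehicle unsorted library lies at 545 CPM, under the vehicle 2N (1113) and 4N (1080) libraries, and the CYC065 unsorted library lies above both CYC065 sorted libraries.

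Fewer chains were past 2-fold between 4N and 2N cells than between CYC065 and vehicle. Between 4N and 2N cells under vehicle, 0 chains were higher and 1 lower of 24, against 2.67% of all genes, 1% higher and 1.67% lower. After CYC065 0 were higher and 0 lower of 23, against 3.57% of all genes, 1.58% higher and 1.99% lower. The median absolute log2 ratio of the chains was 0.19 under vehicle and 0.25 after CYC065, where that of all genes was 0.14 and 0.16. For CYC065 against vehicle the chains' median absolute ratio was 0.62 in 2N and 0.70 in 4N cells.

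The chain called between 4N and 2N cells was *Itga11*, with a log2 ratio of -1.01 (-1.53 to -0.53) under vehicle and -0.98 (-1.30 to -0.67) after CYC065. The vehicle call sits at the threshold. It was lost with DESeq2 size factors (-0.98) and without replicate 3 (-0.69). *Itgb3* was lower in 4N cells in both treatments, at -0.40 (-0.50 to -0.29) and -0.42 (-0.53 to -0.32). *Itgb8* was lower in 4N cells as well, at -0.46 (-0.63 to -0.29) under vehicle and -0.26 (-0.31 to -0.20) after CYC065, and so was *Itga5*, at -0.27 in both. *Itga3* was slightly higher in 4N cells, at 0.15 (0.13 to 0.18) and 0.28 (0.24 to 0.32), and *Itgb7* was too, at 0.22 and 0.29. *Lama4* was at -0.16 under vehicle and -0.51 after CYC065.

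**Figure D5:**
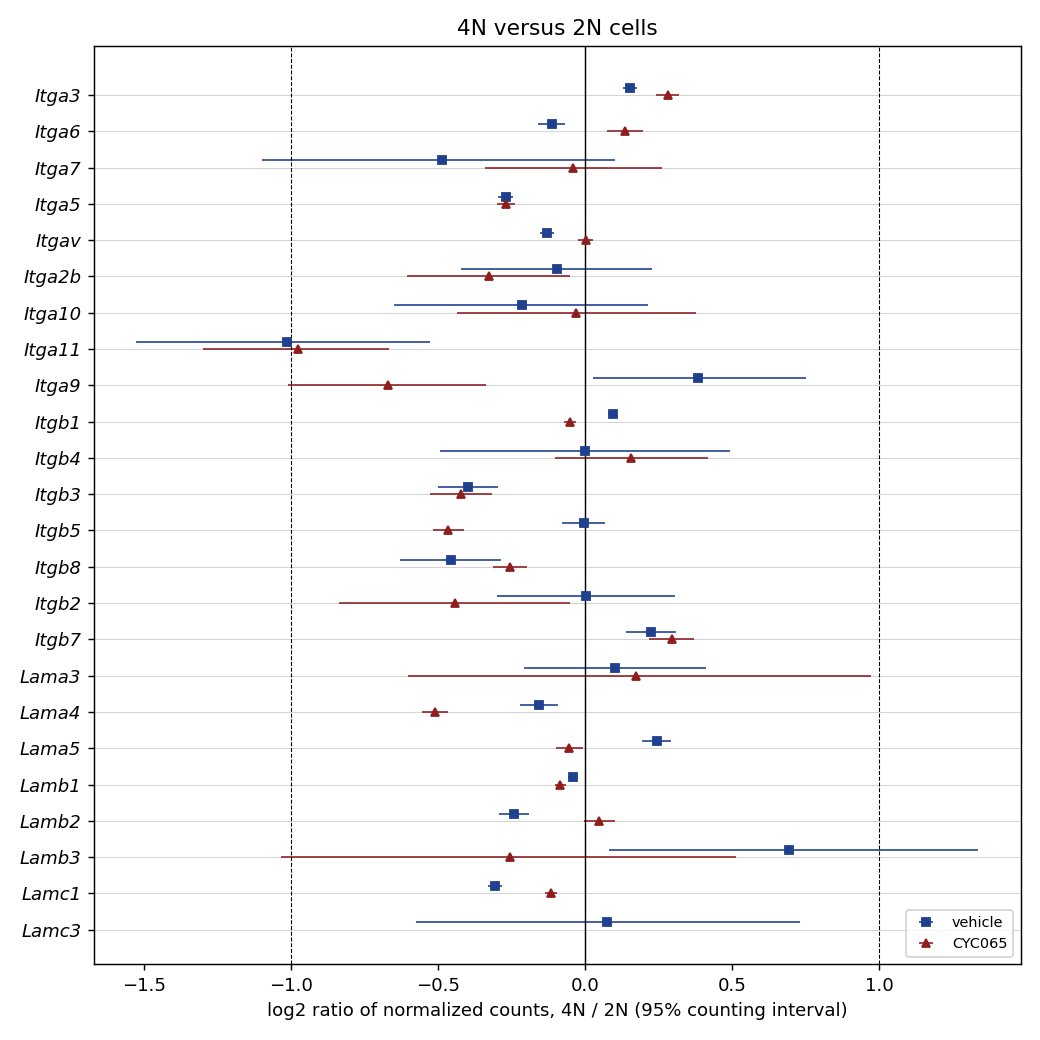
Log2 ratio of 4N to 2N cells for each chain under vehicle and after CYC065, with bars for the 95% counting interval and dashed lines at 2-fold. Every chain but *Itga11* under vehicle (-1.01) lies within the dashed lines, and *Itga9* lies on opposite sides of 0 in the 2 treatments.

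The CYC065 ratio in 4N cells minus that in 2N cells was past 2-fold for 1 of 24 chains, *Itga9*, against 5.22% of all genes. The difference was -1.05 (-1.53 to -0.58), from ratios of 0.60 in 2N and -0.45 in 4N cells. The 4N to 2N ratio of *Itga9* was 0.38 under vehicle and -0.67 after CYC065. The difference of *Itga9* rests on 113 to 179 counts per sorted library, and was no longer past 2-fold without replicate 2. For *Itgb8* the CYC065 ratios in 2N and 4N cells differed by 0.20 (0.02 to 0.38), and for *Itga3* by 0.13 (0.08 to 0.17).

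The genes that work with these chains were summarised from 4 lists. Of 29 genes of the adhesion complex that links integrins to actin, 1 was higher and 3 lower after CYC065 in 2N cells, 1 and 7 in 4N, and 1 and 1 in unsorted cells. The shares over all genes, higher and lower, were 14.9% and 13.3% in 2N, 14.1% and 11.4% in 4N, and 11.7% and 13.9% in unsorted cells. The median log2 ratio of the list was -0.50, -0.29 and -0.12 in this order, against -0.07, -0.03 and -0.07 over all genes. *Kank1*, which joins adhesions to cortical microtubules, was 17.9-fold higher in 2N cells, from 11 to 213 counts. *Tgfb1i1*, the adhesion protein Hic-5, had a ratio of -2.75 there, and *Actn4*, an α-actinin, -1.28.

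Of the 5 hemidesmosome partners, 0 were higher and 2 lower in 2N and in 4N cells, and 0 and 1 in unsorted cells, where 13.3%, 11.4% and 13.9% of all genes were lower in 2N, 4N and unsorted cells. The list's median log2 ratio was -0.91, -0.96 and -0.64, against -0.07, -0.03 and -0.07 over all genes. *Col17a1*, a transmembrane collagen of hemidesmosomes, was at 24 counts after CYC065 and 269 with vehicle in 2N cells, with a ratio of -3.52 (-4.21 to -2.94). *Plec*, the linker of integrin β4 to keratin, had -1.20, and *Cd151*, a tetraspanin bound to α3β1 and α6β4, had -0.91.

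Of the 12 basement membrane partners of laminin that were tested, 3 were higher in 2N, 1 in 4N and 8 in unsorted cells, and 0 were lower in any. Over all genes 14.9%, 14.1% and 11.7% were higher in 2N, 4N and unsorted cells. The list's median log2 ratio was 0.60, 0.30 and 1.37, against -0.07, -0.03 and -0.07 over all genes. *Nid2*, a nidogen that bridges laminin and collagen IV, had 2.60 in 2N cells, and the collagen IV chains *Col4a6* and *Col4a5* had 1.90 and 1.39. Of 15 genes for ligands of RGD-binding integrins and for TGF-β activation, 5 were higher and 3 lower in 2N, 2 and 2 in 4N, and 4 and 2 in unsorted cells. In either direction 28.1%, 25.5% and 25.6% of all genes were past 2-fold, and the 4N count is at that share. The list's median log2 ratio was -0.16, -0.26 and 0.61. *Lrrc32*, which encodes GARP, the surface protein that displays latent TGF-β, had 78 counts with vehicle and 2090 with CYC065 in 2N cells, a ratio of 4.68 (4.36 to 5.03). *Tgfb2*, a TGF-β ligand, had 1.93 and *Thbs1*, a thrombospondin that activates TGF-β, had 1.59.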

How the data were processed

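RNA-Seq of 18 samples (6 conditions with 3 columns each) was used. Libraries of total RNA were stranded, depleted of ribosomal RNA and read from both ends by the authors. The submitters' processing notes name bcl2fastq 2.17, cutadapt 1.18, STAR 2.7.0f and RSEM 1.3.1, with the mm10 build and GENCODE M21. The methods name other versions of bcl2fastq and RSEM. The deposited values are RSEM expected counts per gene, neither normalized nor filtered by the authors. Whether counting used strand is not given in the sources used here.

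The 3 columns of a condition were checked by chi-square (genes averaging 10 counts or more) and summed to 1 library where the value per degree of freedom, over genes with whole counts, was under 1.5. Over genes with fractional counts, where RSEM divides reads, it was 4.35 to 7.60, over all genes 1.62 to 2.24, and over the chains 0.724 to 1.26. TMM factors were computed over the 6 summed libraries with edgeR 4.0.16 in R 4.3.3, and tables with Python 3.11.15, pandas 2.3.3, NumPy 2.4.6 and SciPy 1.17.1. Ratios used a prior count of 0.5, with exact binomial intervals for ratios and exact Poisson intervals for levels, at 95%. A difference of 2 ratios has a normal interval. A gene was counted as called past a log2 ratio of 1 in either direction with at least 30 summed counts in either library. Members were compared in 5 comparisons, which were CYC065 with vehicle in 2N, 4N and unsorted cells, and 4N with 2N cells in both treatments. The rule of calling, and the calculation of the ratio and of the interval, were tested on simulated data.

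The chains and the gene lists were chosen with earlier results of these data known. Of the set, 1 chain is not reported here and is left out of its counts, as is a leukocyte marker. Every other chain is accounted for. Chains with 30 counts in a library are described, those past 2-fold and the most abundant ones in full, and from each partner list the 3 genes with the largest ratio in 2N cells among those with at least 100 counts are named. Lengths and overlaps came from GENCODE M21, where 50-base words shared with other genes measure ambiguous reads. Promoters came from RefSeq (GRCm38.p6). *Itgb8* has a RefSeq start inside a GENCODE exon, and its promoter is not shown.

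Alternatives were library size scaling, DESeq2 size factors, TMM within sorted and within unsorted conditions, a prior count of 2, no filter, a filter at 100 summed counts, intervals wholly past 2-fold, leaving out each replicate, and edgeR's quasi-likelihood test (with and without a replicate block) or DESeq2 1.42.0 on the 3 columns with an adjusted p under 0.05. Those tests compare libraries, not conditions. The comparisons of unsorted with sorted levels, the differences of ratios for unsorted cells and the shares per length were added after the data were seen.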

Additional observations from a re-analysis of the deposited data

Results flagged for a closer look

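Several chains had CYC065 ratios of opposite sign in different populations, each past a log2 ratio of 0.25, with counting intervals on opposite sides of 0. *Itgb7* had -1.57 in unsorted cells, but its ratios of 0.16 in 2N and 0.23 in 4N cells fell short of that limit. So did those of *Itgb3* in 2N (-0.16) and 4N cells (-0.19), against 1.21 in unsorted cells. Each population rests on 1 library per treatment, so these differences were not tested. *Itga5* had a log2 ratio of 0.60 in unsorted cells, where 2N cells gave -0.51 and 4N cells -0.51. For *Itgb1* the unsorted ratio was 0.26, the 2N ratio -0.55 and the 4N ratio -0.70. For *Lamb1* they were 0.70, -0.65 and -0.70 in this order. *Lamb2* had 1.06 in unsorted cells and -0.36 in 2N cells.

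*Itga9* had 0.60 in 2N and 0.83 in unsorted cells, against -0.45 in 4N cells. Its 4N to 2N ratio was 0.38 under vehicle and -0.67 after CYC065.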

How the results depend on the processing

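Counts of called chains changed by no more than 1.5 times in 121 of 137 alternative results. The 121 include results with a main count of 0, such as chains higher in 4N than 2N cells, where 0 again was taken as unchanged. They also include results without 1 replicate, which leave out a part of 1 library and no culture. Without a filter on low counts, 13 chains were higher after CYC065 in 2N and 11 in 4N cells, 7 were lower in unsorted cells, 2 were higher and 5 lower in 4N than 2N cells under vehicle, and 2 and 1 after CYC065. The added calls rest on chains under 30 counts. With at least 100 summed counts, or an interval wholly past 2-fold, 3 chains were lower in 4N cells after CYC065. The single lower chain between 4N and 2N cells under vehicle, *Itga11*, was lost (0 chains) with DESeq2 size factors, a prior count of 2 and an interval wholly past 2-fold. DESeq2 on the columns called 1 chain lower, *Itga11*, in 4N than 2N cells after CYC065. With each replicate left out, 3 to 5 chains were lower in 4N cells after CYC065, where *Itgb2* fell short without replicate 2 (-0.93), 0 to 1 were lower in 4N than 2N cells under vehicle, and 0 to 1 had CYC065 ratios in 2N and 4N cells that differed by over 2-fold, with *Itga9* lost without replicate 2. The other counts in sorted and unsorted cells were 6 higher and 3 lower in 2N, 3 to 4 higher in 4N, and 7 to 8 higher and 3 to 4 lower in unsorted cells. With the replicate number as a block in edgeR's fit to the columns, 6 chains were higher and 4 lower in 2N, 4 and 4 in 4N, and 9 and 3 in unsorted cells, and the fit without the block gave the same counts. The numbers mark parts of 1 library and pair no cultures. Library size scaling alone moved the median of all genes from -0.07 to 0.07 in 2N and from -0.03 to 0.11 in 4N cells. Counts under about 30 per library, as for *Lama3*, *Lamb3* and *Lamc3*, limit those ratios to wide intervals.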
